A study of Danio rerio with 6 samples.

Results

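The genes described are the lysosomal genes on the array together with the subunits of the vacuolar H+-ATPase (V-ATPase), the proton pump that acidifies lysosomes. They were chosen by symbol from the array's platform annotation, among probe sets with 1 gene symbol: cathepsins, legumain, V-ATPase subunits and accessory proteins, lysosome-associated membrane proteins, lysosomal glycosidases, and proteins of lysosomal lipid handling, with progranulins. The rule reads symbols and no expression values, although it was written with earlier results of these data known. It gave 52 of the 8793 genes with a symbol on the array, and where several probe sets shared a symbol, the one with the highest mean stands for the gene. The embryos were whole zebrafish at 24 hours post fertilization (hpf), *fog sk8* mutants and their wild-type (WT) siblings. The *fog sk8* mutation lies in *foggy/spt5* (*supt5h*), which encodes the transcription elongation factor Spt5, and the study describes it as a zygotic null whose embryos still hold some maternal Spt5 protein at this age. No embryo received a treatment, and the sources used here do not say whether heterozygotes are among the WT siblings. Each group had 3 samples of total RNA, described as independent replicates from equal numbers of embryos, and each sample was hybridized to 1 Affymetrix Zebrafish Genome Array.

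Lysosomes are the acidic compartments in which cells break down proteins, glycans and lipids that arrive by endocytosis or autophagy. The V-ATPase drives protons into them by turning a rotor: the V1 sector in the cytosol hydrolyses ATP, and the V0 sector in the membrane carries the protons. The hydrolases, among them the cathepsins, need this acid pH, while heavily glycosylated membrane proteins such as the LAMPs line the inner face of the limiting membrane. In the zebrafish embryo, lysosomes also serve the uptake of yolk, the clearance of dying cells by macrophages and, through a related organelle, the making of pigment granules.

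The values are log2 expression values made by the authors with GC-RMA, so a difference of 1 is 2-fold. Levels of single genes are read here only within a probe set, since different probe sets are not on a common scale. The median level of a marker list is taken over the same probe sets on each array and compared only between arrays. The mutated gene, *supt5h*, read 7.42, 7.56 and 6.80 in the WT samples and 3.66, 3.70 and 3.81 in the *fog sk8* samples, which is lower in every mutant sample (log2 change −3.54, SE 0.20, adjusted p = 0.000994 by limma). The array medians lay between 5.08 and 5.15, and the arrays correlated at 0.991 to 0.997 within a group and at 0.967 to 0.980 between groups. In both groups replicate 3 stood apart: of the 8793 genes, 49.2% had WT replicate 3 farthest from the group mean and 48.3% had *fog sk8* replicate 3 farthest. The RNA came from whole embryos, so fewer cells of a type and less RNA per cell cannot be told apart in any of these values. Not all markers of the cell types searched for could be read above the lower end of the arrays. Of the markers of macrophages and other myeloid cells, of ionocytes and of pigment cells, some were lower in *fog sk8* embryos, as given beside the results below.

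Few of the lysosome and V-ATPase genes changed in *fog sk8* embryos, those that did rose by less than 2-fold, and most log2 changes lay above 0. None of the 52 passed an adjusted p under 0.05 with at least a 2-fold change in either direction by limma, where 0.898% of all genes were called higher and 3.2% lower, and the t-test of the study's methods with the same fold gave 0 as well, before and after adjustment. At any fold, 5 genes rose and 0 fell, beside 10.8% of all genes called higher and 9.14% called lower. The 5 are 9.62% of the 52, close to the share of all genes. They were *atp6v1f*, *ctsa*, *lamp2*, *cd63* and *atp6v0d1*, with log2 changes between 0.28 and 0.60. At an unadjusted p under 0.05, 13 genes were higher and 1, *ctsk*, was lower, against 21.7% and 14.8% of all genes. The log2 change lay above 0 in 41 of the 52 genes (78.9%), against 63.7% of all genes. Its median was 0.16, with quartiles of 0.04 and 0.29, while the median of all genes was 0.06 with quartiles of −0.14 and 0.26. Disregarding sign, the median change was 0.18 for these genes and 0.22 for all genes.

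For 48 of the 52 genes the 95% interval of the change lay wholly within 2-fold in both directions, which held for 84.2% of all genes. The exceptions were *ctsll*, *ctsc*, *man2b2* and *laptm5*. In 18 genes every *fog sk8* array lay above every WT array, where 25.3% of all genes did so, and in 2 genes, *ctsk* and *laptm5*, every *fog sk8* array lay below, where 15.6% of all genes did. In the other 32 the groups overlapped. Of the 47 genes with no call at any fold, *ctsz* and *psap* (adjusted p = 0.060 for both) and *atp6v0ca* (0.064) came nearest to the threshold.

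**Figure D1:**
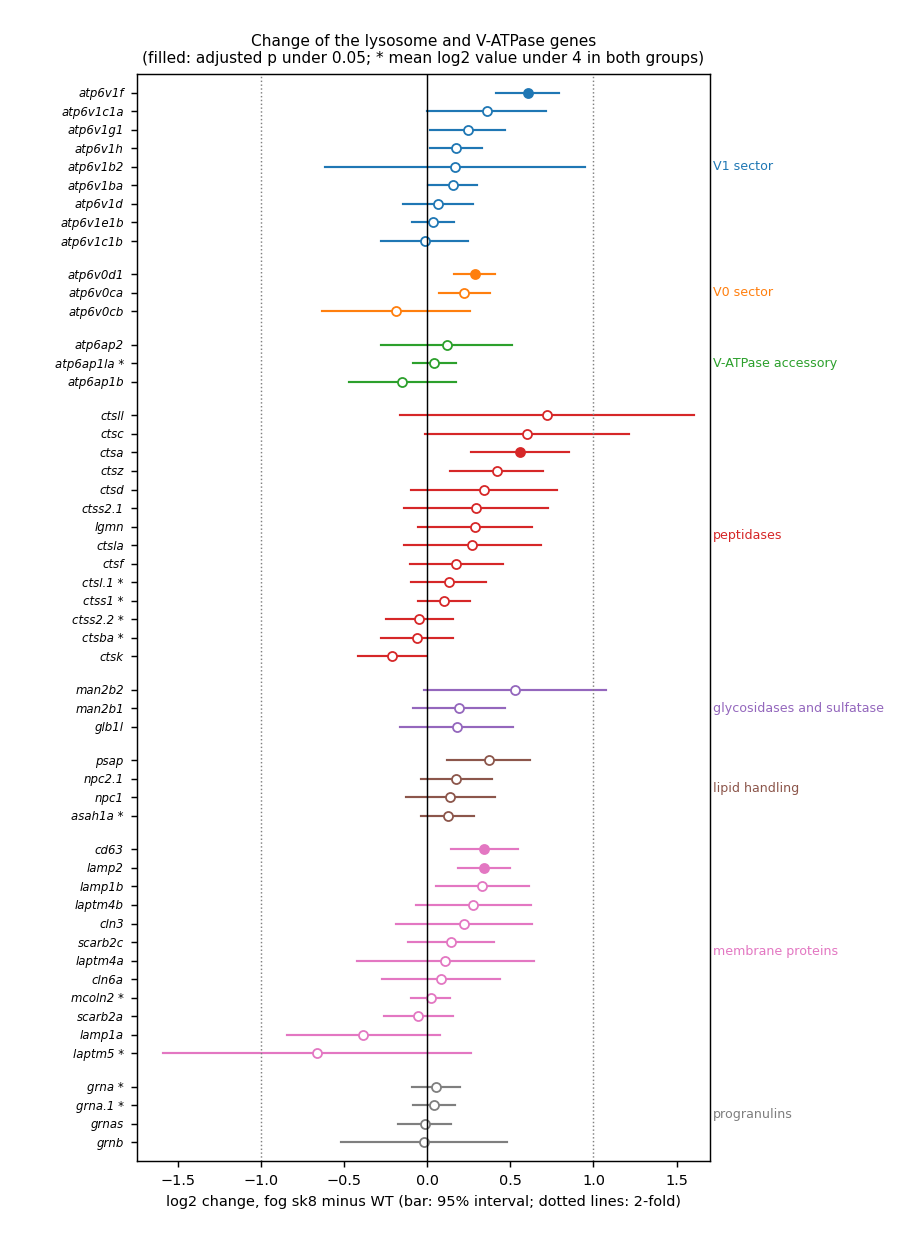
Log2 change from WT to *fog sk8* embryos (x axis) of each of the 52 genes (y axis, grouped by role), with its 95% interval from limma over 3 arrays a group. Filled points are the 5 genes with an adjusted p under 0.05, dotted lines mark 2-fold, and an asterisk marks the 10 dim genes; no point lies beyond 2-fold, and 41 of the 52 lie above 0.

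Of the 15 V-ATPase genes, 2 rose and none fell at any fold, beside 10.8% and 9.14% of all genes, and the intervals of all 15 lay within 2-fold, as did those of 84.2% of all genes. The median change was 0.17 over the 9 genes of the V1 sector, 0.22 over the 3 of the V0 sector and 0.04 over the 3 accessory genes, the last with a range of 0.0038 to 0.067 when any 1 array was left out. Over all 15 genes it was 0.15, with a range of 0.05 to 0.19 when any 1 array was left out, and was lowest without WT replicate 2 (0.05) and WT replicate 1 (0.10). The clearest change belonged to *atp6v1f*, which encodes subunit F of the central stalk that turns inside the V1 sector. Its log2 values were 9.29, 9.20 and 9.20 in the WT samples and 9.71, 9.94 and 9.86 in the *fog sk8* samples. The mutant arrays all lay above the WT arrays, by more than the spread within either group. The change was 0.60 (SE 0.08, 1.52-fold, adjusted p = 0.00771), and the call held in each of the 15 alternative settings, with adjusted p between 0.00486 and 0.0499 in the 14 of them that adjust p.

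Subunit d of the V0 sector, *atp6v0d1*, joins the central stalk to the proton-carrying ring. It read 8.68, 8.70 and 8.73 in WT embryos and 8.99, 9.0 and 8.97 in *fog sk8* embryos. The replicates of each group lay so close together that a small shift separated them: the log2 change was 0.28 (SE 0.05, adjusted p = 0.0174). The call of *atp6v0d1* was lost without some single arrays. The adjusted p was 0.068 without WT replicate 1, 0.065 without WT replicate 2, 0.055 without *fog sk8* replicate 1 and 0.064 without *fog sk8* replicate 2. The log2 change itself stayed between 0.27 and 0.30 with any 1 array left out, where fewer samples enter the fit. With dim probe sets left out the adjusted p was also 0.064.

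The ring itself is built from subunit c, and its 2 genes on the array did not pass the test. *atp6v0ca* read 10.32, 10.24 and 10.36 in WT and 10.53, 10.59 and 10.47 in *fog sk8* embryos, with no overlap (log2 change 0.22, SE 0.06, adjusted p = 0.064). A second probe set of *atp6v0ca* gave a log2 change of 0.24 (SE 0.07, adjusted p = 0.070), also with no overlap between the groups. With both probe sets averaged, the adjusted p was 0.034. *atp6v0cb* read 7.97, 7.95 and 8.30 in WT and 7.62, 7.82 and 8.22 in *fog sk8* embryos, with overlapping groups and a log2 change of −0.19 (SE 0.18).

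Among the other 8 V1 genes, 5 had mutant arrays wholly above the WT arrays without a call, a separation found in 25.3% of all genes. *atp6v1g1*, which encodes a subunit of the outer stalks, read 10.81, 10.72 and 10.91 in WT and 11.02, 10.96 and 11.20 in *fog sk8* embryos (log2 change 0.24, adjusted p = 0.132). *atp6v1c1a*, for a subunit at the base of those stalks, had a log2 change of 0.36 (adjusted p = 0.158), and *atp6v1h*, for a regulatory subunit, one of 0.17 (adjusted p = 0.125). *atp6v1ba*, one of 2 genes on the array for the nucleotide-binding subunit B, had a change of 0.15 (adjusted p = 0.153). *atp6v1e1b*, for another outer stalk subunit, read 10.22, 10.21 and 10.22 in WT and 10.23, 10.30 and 10.23 in *fog sk8* embryos, so its groups were separated by a shift of only 0.04 (95% interval −0.09 to 0.16). The groups of *atp6v1b2*, *atp6v1d* and *atp6v1c1b* overlapped, with log2 changes of 0.17, 0.07 and −0.02.

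The accessory genes did not pass the test either. *atp6ap2*, the (pro)renin receptor that takes part in V-ATPase assembly, read 8.59, 8.47 and 8.91 in WT and 9.0, 8.56 and 8.76 in *fog sk8* embryos (log2 change 0.12, SE 0.16). *atp6ap1b*, for an accessory subunit of the V0 sector, had a change of −0.15 (SE 0.13), and *atp6ap1la* was dim on all arrays. Some ionocytes of the embryonic skin are rich in V-ATPase. The list of ionocyte markers does not separate these from other ionocytes. Of 8 ionocyte markers on the array, 5 fell at least 2-fold, where 3.2% of all genes were called lower at that fold. The 5 were *ca2* and the Na,K-ATPase subunit genes *atp1a1a.2*, *atp1a1a.3*, *atp1a1a.4* and *atp1b1b*. The other 3, *foxi1*, *slc4a4b* and *rhcgb*, were dim, with log2 changes of 0.01, 0.10 and 0.05. The Na,K-ATPase is not particular to ionocytes. The Na,K-ATPase subunit genes *atp1a1a.2*, *atp1b1b* and *atp1a1a.3* fell, with log2 changes of −5.94, −3.94 and −3.19 (adjusted p = 0.000978, 0.000854 and 0.00757). The mutant values of *atp1a1a.2* lay between 2.07 and 3.08, near the lower end of the arrays, where a larger fall would not show. Median marker levels on the log2 scale lay between 6.92 and 7.91 in WT arrays and between 3.67 and 4.01 in *fog sk8* arrays. Between 4 and 5 of the markers fell at least 2-fold whichever array was left out. The part of these cells in the V-ATPase values was not tested.

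Of the 14 peptidases, which make up the cathepsins and legumain, 1 rose and none fell at any fold, beside 10.8% and 9.14% of all genes. The median log2 change was 0.28, and 0.17 without *fog sk8* replicate 3. The gene that rose was *ctsa*, for cathepsin A, a carboxypeptidase that also protects lysosomal beta-galactosidase and neuraminidase from degradation. It read 9.33, 9.52 and 9.18 in WT and 9.84, 10.07 and 9.79 in *fog sk8* embryos, with all mutant arrays above the WT arrays (log2 change 0.56, SE 0.12, 1.47-fold, adjusted p = 0.0312). Without WT replicate 1 or 3 the adjusted p of *ctsa* was 0.091 and 0.064, and without *fog sk8* replicate 1, 2 or 3 it was 0.073, 0.080 and 0.056. It was 0.077 with replicate 3 of both groups left out and 0.092 by the methods' t-test after adjustment.

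*ctsll* and *ctsc* had log2 changes that rested more on single arrays. *ctsll*, a cathepsin L-like gene, read 8.20, 8.26 and 7.16 in WT and 8.75, 8.89 and 8.15 in *fog sk8* embryos. Replicate 3 was the lowest of its group in both genotypes, so that the groups overlapped although each mutant sample exceeded the WT sample of the same number (log2 change 0.72, SE 0.36, adjusted p = 0.236). Without WT replicate 3 the change of *ctsll* was 0.36. *ctsc*, for cathepsin C, a dipeptidyl peptidase that activates serine proteases of white blood cells in mammals, had a low replicate 3 in both groups too, with 9.70, 9.65 and 9.22 in WT and 10.57, 10.08 and 9.71 in *fog sk8* embryos (log2 change 0.60, SE 0.25, adjusted p = 0.166). Without *fog sk8* replicate 1 the change of *ctsc* was 0.38. Samples of equal number were also compared as pairs, which was among the planned settings. Deviations from the group means correlated at 0.12, 0.29 and 0.39 for replicates 1, 2 and 3. Between WT replicate 1 and *fog sk8* replicate 2 the value was 0.18, and between WT replicate 2 and *fog sk8* replicate 1 it was 0.15. Both exceed the 0.12 of replicate 1, and the labels state no pairing, so equal numbers may not mark true pairs. With the replicate number as a block, *ctsll* and *ctsc* were called (adjusted p = 0.020 and 0.029), as were *ctsz* (0.025), *psap* (0.037) and *lamp1b* (0.034). The paired count was 10 of the 52 genes higher and 0 lower, where 13.1% of all genes were called higher.

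*ctsz*, for the carboxypeptidase cathepsin Z, read 7.44, 7.49 and 7.65 in WT and 7.81, 7.87 and 8.15 in *fog sk8* embryos, with no overlap (log2 change 0.42, SE 0.11, adjusted p = 0.060). Legumain, *lgmn*, an endopeptidase that cuts after asparagine and matures cathepsins, was also wholly higher in the mutant arrays (log2 change 0.29, adjusted p = 0.223). *ctsd*, for the aspartic protease cathepsin D, read 10.82, 10.80 and 10.91 in WT and 10.99, 10.98 and 11.60 in *fog sk8* embryos. Its log2 change was 0.34 (adjusted p = 0.258), and 0.14 without *fog sk8* replicate 3. That array was likewise the high one for *ctsla*, a cathepsin L gene, which read 12.80, 12.85 and 12.89 in WT and 12.89, 12.97 and 13.49 in *fog sk8* embryos (log2 change 0.27, SE 0.17, and 0.08 without that array). *ctss2.1*, for a cathepsin S, had a change of 0.29 with overlapping groups, and *ctsf*, for cathepsin F, one of 0.18.

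The gene *ctsk*, for cathepsin K, known in mammals for collagen breakdown by osteoclasts, went the other way. It read 6.69, 6.75 and 6.83 in WT and 6.41, 6.63 and 6.61 in *fog sk8* embryos, each mutant array below each WT array (log2 change −0.21, SE 0.08, adjusted p = 0.143). By the order of genes in RefSeq, *ctsk* lies next to *ctss2.1* and *ctss2.2*. Their log2 changes were 0.29 for *ctss2.1* and −0.05 for *ctss2.2*, which was dim. The remaining peptidase genes, *ctsl.1*, *ctss1* and *ctsba*, were dim as well, with changes of 0.13, 0.10 and −0.06.

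**Figure D2:**
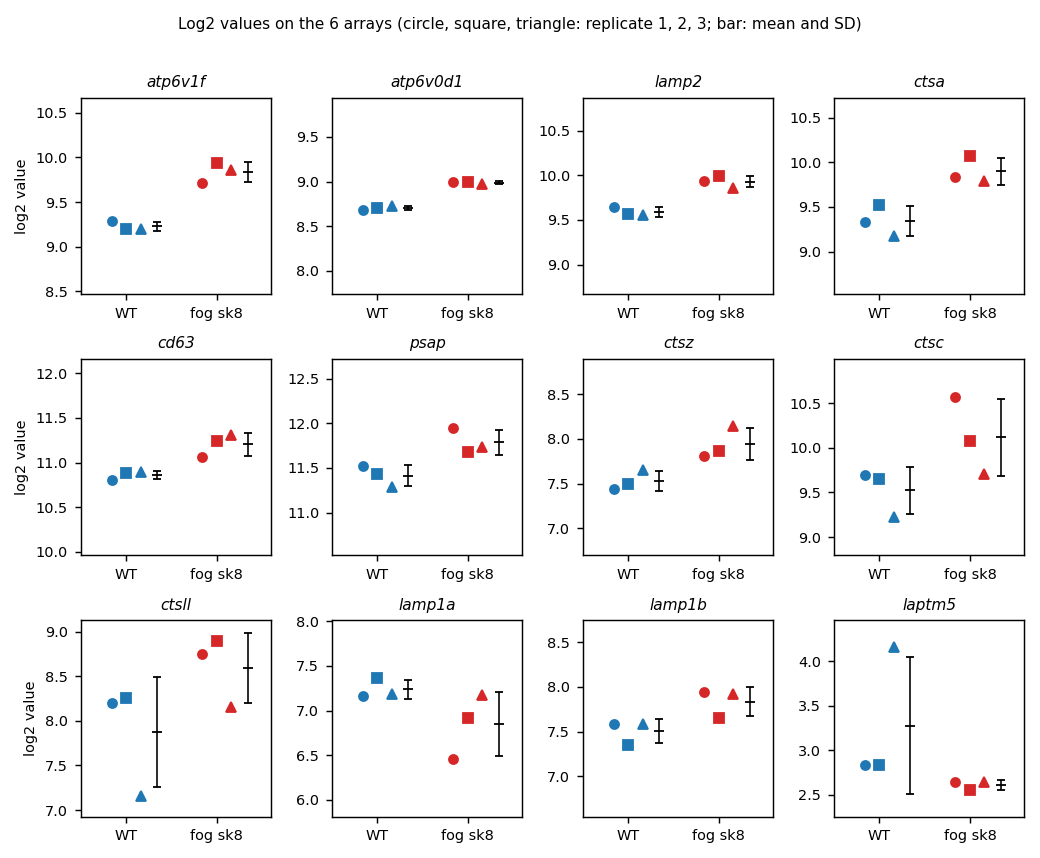
Log2 values (y axis, spanning the same length in each panel) of 12 genes on the 6 arrays, WT in blue and *fog sk8* in red, with circle, square and triangle for replicates 1, 2 and 3 and a bar for the mean and SD of each group. In the 5 genes of the first panels, *atp6v1f*, *atp6v0d1*, *lamp2*, *ctsa* and *cd63*, all mutant arrays lie above all WT arrays, while *ctsll* and *lamp1a* overlap between the groups and *laptm5* has a single high WT array.

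The 3 glycosidase genes and the 4 genes of lipid handling all had log2 changes above 0, as did 63.7% of all genes, and none was called. Their medians were 0.19 and 0.16, which lay between 0.14 and 0.31 and between 0.13 and 0.22 when any 1 array was left out. *man2b1*, for lysosomal alpha-mannosidase, read 7.49, 7.47 and 7.82 in WT and 7.76, 7.73 and 7.87 in *fog sk8* embryos, with overlap (log2 change 0.19, SE 0.11, adjusted p = 0.305). The related *man2b2* had a change of 0.53 (SE 0.22, adjusted p = 0.173), and *glb1l*, which encodes a relative of beta-galactosidase, one of 0.18 (SE 0.14). *psap* encodes prosaposin, the precursor of the small proteins that present sphingolipids to their hydrolases. It read 11.52, 11.43 and 11.29 in WT and 11.95, 11.68 and 11.73 in *fog sk8* embryos, with no overlap (log2 change 0.37, SE 0.10, adjusted p = 0.060). Besides the paired fit, *psap* was called with a mean-variance trend (0.047) and with arrays centred on their medians (0.045).

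The cholesterol exporters of the lysosome, *npc2.1* and *npc1*, work in sequence, the soluble NPC2 handing cholesterol to NPC1 in the membrane. *npc2.1* read 11.52, 11.44 and 11.65 in WT and 11.81, 11.74 and 11.59 in *fog sk8* embryos, so the groups overlapped (log2 change 0.17, SE 0.09, adjusted p = 0.238). *npc1* had a change of 0.14 (SE 0.11) and also overlapped. The acid ceramidase gene *asah1a* was dim.

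Of the 12 genes for membrane proteins, 2 rose and none fell at any fold, beside 10.8% and 9.14% of all genes. The median log2 change was 0.12, with 0.04 without WT replicate 2, 0.06 without *fog sk8* replicate 3 and 0.23 without WT replicate 3. *lamp2* encodes one of the abundant glycoproteins of the lysosomal membrane. Its values were 9.65, 9.57 and 9.55 in WT and 9.94, 9.99 and 9.86 in *fog sk8* embryos, each mutant array above each WT array (log2 change 0.34, SE 0.06, 1.27-fold, adjusted p = 0.0202). The adjusted p of *lamp2* was 0.051, 0.070 and 0.055 without WT replicate 1, 2 or 3, and 0.063 and 0.067 without *fog sk8* replicate 1 or 2.

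*cd63*, for a tetraspanin of late endosomes and lysosomes, read 10.81, 10.88 and 10.89 in WT and 11.06, 11.24 and 11.31 in *fog sk8* embryos. The groups did not overlap, and the log2 change was 0.34 (SE 0.08, 1.27-fold, adjusted p = 0.0409). It was called in 7 of the 15 alternative settings, the fewest of the 5 genes: the adjusted p of *cd63* was 0.122, 0.101 and 0.079 without WT replicate 1, 2 or 3, 0.118 and 0.081 without *fog sk8* replicate 2 or 3, and 0.114 without replicate 3 of both groups. It was 0.090 by the methods' t-test after adjustment and 0.056 with dim probe sets left out. In zebrafish *cd63* is also a marker of the hatching gland. Of the other markers of that gland, *klf17* had a log2 change of −0.48 (adjusted p = 0.094) and *xbp1* one of 0.22 (adjusted p = 0.060), and the part of this gland in the value of *cd63* was not tested.

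The paralogs *lamp1a* and *lamp1b*, which both encode LAMP1-type membrane glycoproteins, had changes of opposite sign. *lamp1b* read 7.59, 7.35 and 7.58 in WT and 7.94, 7.65 and 7.92 in *fog sk8* embryos, with no overlap (log2 change 0.33, SE 0.11, adjusted p = 0.105). *lamp1a* read 7.16, 7.36 and 7.19 in WT and 6.46, 6.92 and 7.17 in *fog sk8* embryos, lower mainly in mutant replicate 1 (log2 change −0.38, SE 0.19, adjusted p = 0.225). The value of *lamp1a* minus that of *lamp1b* fell by 0.72 from WT to *fog sk8* embryos, and its 3 mutant values lay below its 3 WT values. An exact two-sided permutation test over the 6 arrays gave p = 0.10, with an adjusted p of 0.233 over the 7 pairs of paralogs compared. A p of 0.10 is the smallest that this design can give, and it lies above the threshold used for calls. The test therefore cannot decide whether the paralogs diverge, and no conclusion is drawn from it.

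In 2 other pairs the differences were also separated between the groups at this smallest p. Among single genes such separation is common, with 25.3% of all genes wholly higher and 15.6% wholly lower in the mutant arrays. *atp6v1c1a* gained 0.37 on *atp6v1c1b*, and *scarb2a* lost against *scarb2c* (difference −0.20), both genes being relatives of the receptor that carries glucocerebrosidase to lysosomes. The other 4 pairs overlapped, with differences of 0.41 for *atp6v0ca* against *atp6v0cb*, −0.34 for *man2b1* against *man2b2*, −0.17 for *laptm4a* against *laptm4b* and −0.01 for *atp6v1ba* against *atp6v1b2*. The pairs were chosen after the values were seen.

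The remaining membrane genes did not pass the test. *cln3*, which in humans is mutated in Batten disease, had a log2 change of 0.22 (SE 0.17), and *cln6a*, whose product resides in the endoplasmic reticulum rather than the lysosome, one of 0.08 (SE 0.14). *laptm4b* had a change of 0.28 (SE 0.14) and, at a second probe set, of 0.20 (SE 0.06, adjusted p = 0.079). *laptm4a* read 7.84, 7.79 and 8.36 in WT and 7.95, 7.90 and 8.45 in *fog sk8* embryos, so that replicate 3 exceeded the rest in both groups by more than the groups differed (log2 change 0.11, SE 0.22). *mcoln2*, for a lysosomal cation channel, was dim.

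*laptm5*, which in mammals encodes a lysosomal protein of blood cells, was dim, and its change rested on 1 array. It read 2.83, 2.83 and 4.16 in WT and 2.65, 2.55 and 2.64 in *fog sk8* embryos (log2 change −0.66, SE 0.37, adjusted p = 0.294). The groups did not overlap, but WT replicate 3 alone lay above 4. Without it the log2 change was −0.22. The list of macrophage and microglia markers also holds genes of myeloid cells more widely, such as *lyz*, and some of its genes were lower too. Of 10 on the array, 4 fell at least 2-fold, where 3.2% of all genes were called lower at that fold. None was called higher, and the median log2 change was −0.49. The markers with the largest changes were *lyz*, the lysozyme of myeloid cells, *srgn* and *lcp1*, at −5.10, −1.95 and −1.74 (adjusted p = 0.00127, 0.0175 and 0.0215). The call of *srgn* ended without *fog sk8* replicate 1 or 2 (0.054 and 0.056), and that of *lcp1* without WT replicate 1 or 2 (0.065 and 0.060). The mutant values of *lyz* lay between 2.75 and 2.82, near the lower end of the arrays, so that its fall is measured only as far as that end. Between 3 and 4 of the markers fell at least 2-fold whichever array was left out. Median marker levels were 3.99 to 4.04 in WT and 2.81 to 2.90 in *fog sk8* arrays, and 5 of the 10 markers were dim. These were *csf1ra*, *marco*, *spi1b*, *mpx* and *ncf1*, with log2 changes of −0.05, 0.04, −0.09, 0.07 and −0.21. The part of myeloid cells in the change of *laptm5* was not tested.

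Progranulins are secreted growth factors that reach the lysosome and are cut there into granulins. None of the 4 genes passed the test, and their median log2 change was 0.01. *grnb* read 4.17, 4.39 and 4.40 in WT and 4.60, 3.86 and 4.44 in *fog sk8* embryos (log2 change −0.02, SE 0.20). *grnas*, which RefSeq lists as a long noncoding RNA that overlaps *grna.1* and *grna.2*, read 4.64, 4.66 and 4.62 in WT and 4.60, 4.72 and 4.55 in *fog sk8* embryos (log2 change −0.02, 95% interval −0.18 to 0.14). Both of these changes turned positive when arrays were rescaled, to 0.02 for each with arrays centred on their medians, and to 0.04 for *grnas* and 0.02 for *grnb* after another quantile normalization. *grna* and *grna.1* were dim.

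In all, 10 of the 52 genes were dim, that is, with a mean log2 value under 4 in both groups, against 26.8% of all genes. Their values lay between 2.04 and 4.16, near the lower end of the arrays, whose 10th percentiles lay between 2.28 and 2.35. The other 42 had a median log2 change of 0.18, against 0.10 for the 6436 genes that were not dim. The change lay above 0 in 34 of these 42, where it did so in 59.6% of those 6436 genes.

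The arrays themselves differed in how they carried these changes. WT replicate 3 was the array farthest from its group mean in 23 of the 52 genes, and *fog sk8* replicate 3 in 25. The direction varied from gene to gene. Replicate 3 was the low one of both groups in *ctsll*, *ctsc* and *ctss2.1*, which read 11.57, 11.52 and 11.15 in WT and 11.82, 11.90 and 11.40 in *fog sk8* embryos. It was the high one of both groups in *laptm4a* and in *atp6v1b2*, which read 5.58, 5.34 and 6.29 in WT and 5.66, 5.65 and 6.40 in *fog sk8* embryos. For *atp6v1b2* the step between replicates was larger than the log2 change of 0.17 between the groups. With replicate 3 of both groups left out, 5 of the 52 genes were called higher, where 7.15% of all genes were. Of those 5, only 3 (*atp6v1f*, *atp6v0d1* and *lamp2*) were among the first 5. *ctsll* and *ctsz* then passed, with adjusted p of 0.031 and 0.042, and *ctsa* and *cd63* did not.

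**Figure D3:**
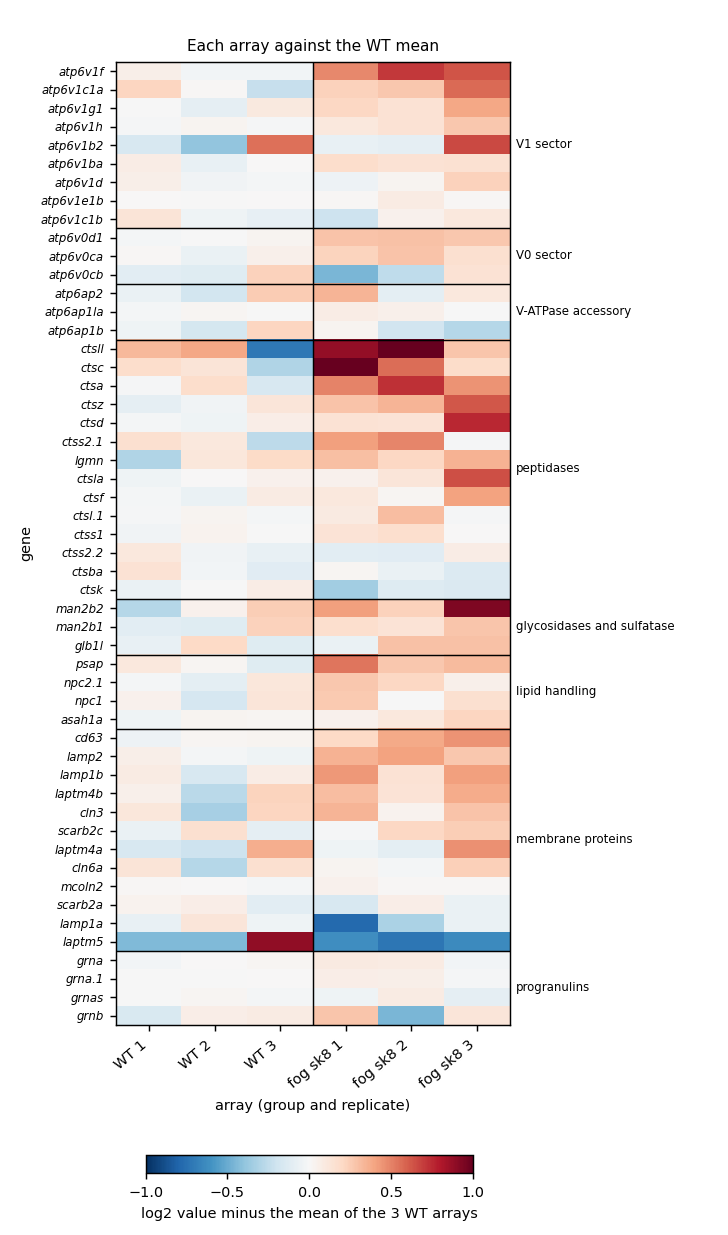
Log2 value minus the mean of the 3 WT arrays (colour, red above and blue below that mean, with the scale ending at 1 in either direction) for the 52 genes (rows, by role) on the 6 arrays (columns). *atp6v1f* and *ctsa* are red on all 3 *fog sk8* arrays, *laptm5* is blue there, and *ctsll*, *atp6v1b2* and *laptm4a* show replicate 3 apart from replicates 1 and 2 in both groups.

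Other lysosomal genes were read from lists made from general knowledge. Of 17 genes on the array listed as further lysosomal enzymes, 4 rose and 0 fell at any fold, beside 10.8% and 9.14% of all genes, none by 2-fold. All 17 had a log2 change above 0, which held for 63.7% of all genes, and the median was 0.28, or 0.18 without *fog sk8* replicate 3. *sumf1*, whose product activates the sulfatases, had a change of 0.75 (adjusted p = 0.0233). This product and that of *sumf2*, also in the list, reside in the endoplasmic reticulum rather than the lysosome. *ppt1*, for palmitoyl-protein thioesterase, had a change of 0.64 (adjusted p = 0.0210), and *dpp7*, for a dipeptidyl peptidase, one of 0.59 (0.00976). *scpep1*, for a serine carboxypeptidase, had one of 0.39 (0.0484). The call of *dpp7* held whichever array was left out. The count fell to between 1 and 3 with any array left out, where 5.27% to 7.68% of all genes were called higher. *ppt1*, *sumf1* and *scpep1* each lost their call without WT replicate 1 (0.067, 0.059 and 0.117) or without *fog sk8* replicate 2 (0.067, 0.061 and 0.115), among others. The phosphatase gene *acp5a*, known from osteoclasts, had a change of 0.09 (SE 0.12).

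Of 24 genes of lysosomal membrane, sorting and transport, 1 rose and 1 fell at any fold, beside 10.8% and 9.14% of all genes. The median log2 change was 0.17. *m6pr*, the mannose 6-phosphate receptor that carries hydrolases to the lysosome, had a change of 0.22 (adjusted p = 0.0456), which was not called without any 1 of the 6 arrays (0.057 to 0.140). *rab32a* fell by 1.42 (adjusted p = 0.00716), whichever array was left out. Rab32 is a small GTPase known for its work on melanosomes, the lysosome-related organelle of pigment cells. Of 6 pigment cell markers on the array, 4 fell at least 2-fold, where 3.2% of all genes were called lower at that fold. They did so also with any 1 array left out: *gch2*, *dct*, *mitfa* and *pmelb*, with log2 changes of −8.32, −5.34, −2.83 and −2.69. The mutant values of these 4 genes lay at or under 3.02, as low as 1.75 for *dct*, where a larger fall would not show. The others, *sox10* and *tyr*, had log2 changes of −0.23 and 0.0047, and *tyr* was dim. Median marker levels were 5.93 to 6.03 in WT and 2.38 to 2.71 in *fog sk8* arrays. The part of these cells in the fall of *rab32a* was not tested.

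The transcription factors of the MiT/TFE family switch on lysosomal genes, and the kinase complex mTORC1, which sits on the lysosome, holds them back. Of 17 genes of lysosome biogenesis and mTORC1 regulation, 3 rose and 2 fell at any fold, beside 10.8% and 9.14% of all genes. The median log2 change was 0.19. The 2 family members in this list had changes of opposite sign: *tfe3a* had a change of 0.43 (SE 0.10, adjusted p = 0.0448) and *mitfa*, also the master regulator of melanocytes, one of −2.83 (SE 0.10, adjusted p = 0.000345). *tfe3a* read 3.79, 4.09 and 3.92 in WT and 4.40, 4.45 and 4.22 in *fog sk8* embryos, near the bound of 4 for dim genes. The call of *tfe3a* was lost in 5 of 6 cases when 1 array was left out (0.051 to 0.124), and held without *fog sk8* replicate 3 (0.049). *lamtor4*, for a part of the Ragulator complex that anchors mTORC1, rose by 0.49 (SE 0.06, adjusted p = 0.00611), whichever array was left out. *tsc1a*, for part of the complex that restrains mTORC1, had a change of 0.31 (adjusted p = 0.0263), with no call when any array was left out (0.054 to 0.084). *deptor*, for an inhibitor bound to mTOR, had a change of −0.78 (adjusted p = 0.0196), with no call without WT replicate 2 (0.063) or *fog sk8* replicate 3 (0.054), and *mtor* itself one of 0.19 (0.0713). The values of *deptor*, 4.05, 4.31 and 4.42 in WT and 3.27, 3.66 and 3.52 in *fog sk8* embryos, also lay near the bound for dim genes.

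Cells rich in lysosomal hydrolases were looked for as well. Of 14 markers of the yolk syncytial layer, which takes up and digests yolk, 1 rose and 0 fell at any fold. The shares of all genes were 10.8% and 9.14%. None rose by 2-fold, and the median change was 0.09. The gene that rose was *mttp*, for the protein that loads lipoproteins, with a change of 0.92 (adjusted p = 0.0332), not called without WT replicate 1 (0.079), nor without mutant replicate 1 or 2 (0.0975 and 0.0980). The apolipoprotein gene *apoa1a* had a change of 0.16 (adjusted p = 0.118). Median marker levels overlapped, at 11.9 to 12.2 in WT and 11.8 to 12.2 in *fog sk8* arrays. The large vacuole of the notochord is a lysosome-related organelle acidified by the V-ATPase. Of 13 genes listed as notochord markers, 2 rose and 4 fell at any fold, beside 10.8% and 9.14% of all genes. The changes of 7 lay above 0, where 63.7% of all genes did, and the median change was 0.10, or −0.04 without WT replicate 2. These 7 were *lamb1a*, *lamc1*, *cav1*, *tbxta* and the COPI vesicle coat genes *copa*, *copb2* and *copb1*. The COPI coat is not particular to the notochord. *lamb1a*, for a laminin of the sheath around the notochord, rose by 0.63 (adjusted p = 0.00611), and *copb1*, for a part of the COPI vesicle coat, by 0.26 (adjusted p = 0.0452). The call of *lamb1a* held whichever array was left out, and that of *copb1* was lost without any 1 of the 6 (0.057 to 0.132). *matn4*, *col9a2* and *col2a1a*, genes of the matrix around the notochord, fell, with log2 changes of −2.42, −1.97 and −1.34 (adjusted p = 0.0244, 0.00617 and 0.0171), and the count of markers at least 2-fold lower was 1 to 3 with any array left out. The call of *matn4* was lost without WT replicate 1 (0.063) and without mutant replicate 1 or 2 (0.071 and 0.076), and that of *col2a1a* without WT replicate 2 (0.053) or mutant replicate 2 (0.050). Also called lower was *shhb*, a dim gene, with a log2 change of −0.77 (adjusted p = 0.0248). It is known mainly from the floor plate rather than the notochord. The markers *col8a1a* and *shha* had changes of −0.48 and −0.15 without a call. The part of these cells in the lysosomal values was not tested.

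**Figure D4:**
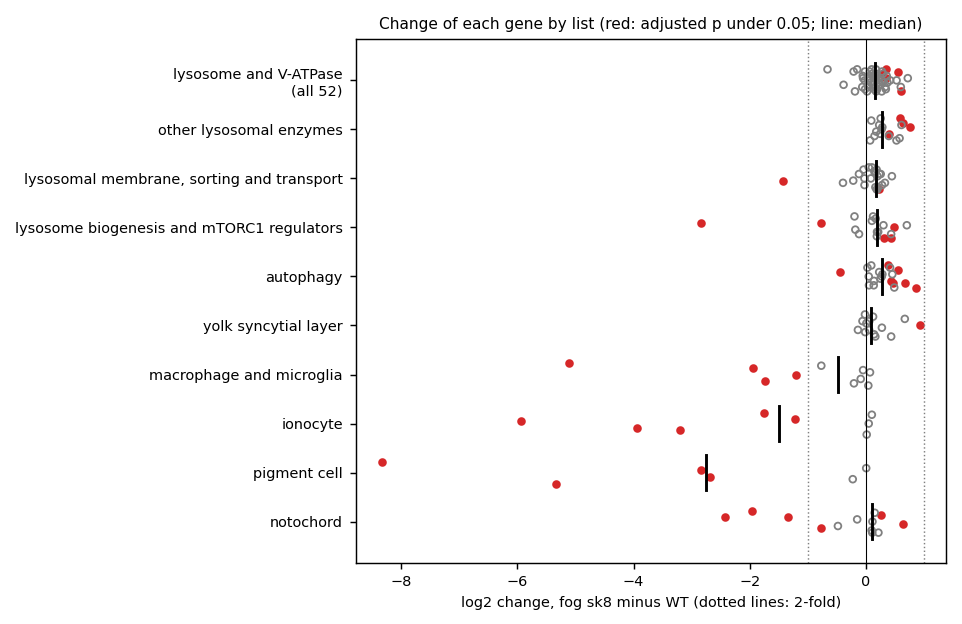
Log2 change from WT to *fog sk8* embryos (x axis) of each gene in the 52 lysosome and V-ATPase genes and in the other lists except the hatching gland (y axis), filled red where the adjusted p was under 0.05, with a black line at each list's median and dotted lines at 2-fold. The lysosomal and autophagy lists lie mostly between 0 and 2-fold higher, apart from genes such as *mitfa* (−2.83) and *rab32a* (−1.42). Some macrophage, ionocyte, pigment cell and notochord markers reach far below.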

How the data were processed

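The authors hybridized total RNA of 3 *fog sk8* and 3 WT sibling samples to Affymetrix Zebrafish Genome Arrays and deposited log2 values made with GC-RMA, that is, with probe background estimated from GC content, quantile normalization of the arrays and 1 value per probe set. The sources used here give no version of it. Normalization makes each value relative to the other transcripts of its array, and scanner files were not used here. All 15502 probe sets other than the 115 controls among 15617 entered 1 fit with lmFit and eBayes (limma 3.58.1, R 4.3.3), without a covariate and with Benjamini-Hochberg adjustment over all of them. Intervals are 95% intervals from that fit. Probe sets were named by the platform annotation (10795 with 1 symbol, 135 with several, 4572 with none). The symbols of all 52 genes matched RefSeq (assembly GRCz12tu), which served for names and neighbours only, and 51 are protein-coding there. No position is given, since the sources used here name no genome build for the array.

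The 52 genes, the gene lists and the rules were chosen with earlier results of these data known. Named by rule were *supt5h*, the genes past an adjusted p under 0.05, the 2 genes of highest mean in each role group, and in each other list up to 3 genes past that threshold at 2-fold or otherwise the one of highest mean. All other genes were named after their values were seen. Lists are described by counts and medians.

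Whether replicate numbers pair the samples was checked by correlating deviations from the group means over all probe sets. This gave 0.12, 0.29 and 0.39 for replicates 1, 2 and 3, all above the bound of 0.1 set for pairing. The crossed value of WT replicate 1 and *fog sk8* replicate 2 was 0.18, and that of WT replicate 2 and *fog sk8* replicate 1 was 0.15. Both lay above that of the replicates numbered 1, and the labels name no shared clutch or day. P-values set the difference between the groups against the spread between replicates, which limma pools in part over all probe sets. The number of replicates limits the precision. As alternatives, the comparison was repeated with the methods' t-test (Student's), each array left out, the replicate block, median-centred arrays, a mean-variance trend, dim probe sets dropped, a further quantile normalization and the mean over a gene's probe sets. Leaving out replicate 3 of both groups, and the exact permutation test of paralogs, were added after seeing the data. The fit was tested on simulated data. Tables and plots used Python 3.11.15, pandas 2.3.3, scipy 1.17.1 and matplotlib 3.10.9.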

Additional observations from a re-analysis of the deposited data

How the results depend on the processing

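No setting gave a gene among the 52 past 2-fold in either direction, and none gave a gene lower at any fold. The count of genes higher at any fold was 5, where 10.8% of all genes were called higher. It became 10 by the methods' t-test without adjustment (18.4% of all genes) and 3 by that test with adjustment (3.86%). It was 3 with dim probe sets left out (15.1%) and 10 with the replicate block, the paired fit (13.1%). The count lay between 1 and 3 with any 1 array left out (5.27% to 7.68%), where fewer samples enter the fit. The other settings gave 5 to 7 (7.15% to 13.7%). The median change of the 52 genes stayed between 0.12 and 0.20. Near 0, signs depended on the setting, and the cause was not tested. With dim probe sets left out the median of the accessory genes was −0.0168 and that of the progranulins −0.0190. With arrays centred on their medians, *atp6v1c1b*, *grnas* and *grnb* were at 0.0237, 0.0221 and 0.0175, and after quantile normalization *grnas*, *grnb* and *mcoln2* were at 0.0407, 0.0198 and −0.0087. With probe sets averaged *ctss2.2* was at 0.068. Without replicate 3 of both groups *atp6ap1b*, *atp6v1d* and *grnas* were at 0.0227, −0.0251 and 0.0134. With 1 array left out, the change ranged from −0.0821 to 0.441 for *atp6v1b2*, −0.0771 to 0.0773 for *atp6v1c1b*, −0.0115 to 0.125 for *atp6v1d*, −0.0588 to 0.161 for *cln6a*, −0.121 to 0.00679 for *ctsba*, −0.109 to 0.00296 for *ctss2.2*, −0.0656 to 0.0220 for *grnas*, −0.171 to 0.198 for *grnb*, −0.0671 to 0.289 for *laptm4a*, −0.115 to 0.00147 for *scarb2a* and −0.0233 to 0.171 for *acp5a*, and the difference of *atp6v1ba* against *atp6v1b2* from −0.287 to 0.236. None of these genes was called in any setting, except that *atp6v1ba* passed the methods' t-test without adjustment. The precision is that of 3 arrays a group (median standard error 0.11 over the 52 genes), and 10 of the 52 genes were dim.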

Other observations

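Autophagy delivers cytoplasm to the lysosome, and its genes were read from a list of their own. Of 20 autophagy genes on the array, 6 rose and 1 fell at any fold, none of them by 2-fold, where 10.8% of all genes were called higher and 9.14% lower. The log2 change lay above 0 in 19 of the 20, where it did so in 63.7% of all genes, with a median of 0.28 against 0.06 for all genes. With any 1 array left out, 3 or 4 rose, where 5.27% to 7.68% of all genes were called higher, and at most 1 fell.

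*map1lc3a*, for an LC3 protein that coats the autophagosome, had a log2 change of 0.86 (SE 0.05, adjusted p = 0.00123), and *wipi2*, for a protein that recruits the LC3 conjugation machinery, one of 0.46 (SE 0.06, adjusted p = 0.0063). Both calls held whichever array was left out. The related *map1lc3b* had a change of 0.23 (adjusted p = 0.133). *atg5*, for a part of the conjugation machinery, had a change of 0.56 (adjusted p = 0.0179) and was not called without WT replicate 1 (0.053). *sqstm1*, for the cargo receptor p62, had a change of 0.68 (adjusted p = 0.0356), with adjusted p of 0.102, 0.101, 0.101 and 0.074 without WT replicate 1, WT replicate 2, *fog sk8* replicate 1 or *fog sk8* replicate 3. *gabarapa*, an LC3 relative, had a change of 0.38 (adjusted p = 0.0249) and kept its call in 1 of the 6 cases with an array left out.

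The 2 genes of the phosphatidylinositol 3-kinase complex that starts the autophagosome had changes of opposite sign. *pik3c3*, for the catalytic subunit, had a log2 change of −0.44 (adjusted p = 0.0231) and was called in 2 of the 6 cases with an array left out (adjusted p 0.030 to 0.075). *pik3r4*, for its regulatory subunit, had a change of 0.43 (adjusted p = 0.0495) and was called in none (0.068 to 0.118).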
